A study of Homo sapiens with 3 samples.

Results

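NF-kB is a family of dimeric transcription factors that sits inactive in the cytoplasm until a signal arrives. Inhibitor proteins of the IkB family hold the dimers there, and a kinase complex marks these inhibitors for destruction when receptors for tumour necrosis factor, interleukin-1 or microbial products are engaged. The freed dimers enter the nucleus and switch on target genes, among them genes for their own inhibitors and precursors, so that the mRNA levels of these feedback genes are often read as a record of NF-kB activity. The genes described here are the subunit genes NFKB1, NFKB2, RELA and RELB and the feedback genes NFKBIA, NFKBIE, TNFAIP3, IER3 and BIRC3. They were chosen by symbol as a list of 9, and every probe set annotated with one of these symbols alone was taken. Such sets were found for 8 of the 9 genes, 12 probe sets in all, out of 19070 named sets for 11963 genes. BIRC3, an inhibitor of cell death, was not analysed here, because no probe set carries its symbol in the annotation used.

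The study used dCas9VP160, a Cas9 without cutting activity fused to the transcriptional activator VP160, to switch on endogenous genes through guide RNAs, and asked how gene expression changed with each guide. All 3 samples were HEK293T cells, a line from human embryonic kidney with SV40 large T antigen, transfected with dCas9VP160 and Fugene HD. They received guides named sgIL1RN1~3, directed to the promoter of IL1RN, or sgTetO, directed to the TetO promoter, or sgTetOmut, a mutant form of sgTetO given as the non-targeting control. Each guide condition was measured on 1 array, so no difference below has a replicate error and no test was possible. The labels do not give the time of harvest or the share of cells transfected.

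Values are the deposited log2 intensities, in which 1 unit is a 2-fold difference, and a gene with several probe sets is represented by its brightest set, judged by the mean of all arrays, unless another is named. The highest of 27 probe sets for Bacillus transcripts, 3.40 on sgIL1RN1~3, 3.40 on sgTetO and 3.29 on sgTetOmut, served as the background level. Of all named genes 76.5%, 76.0% and 77.8% lay above it on sgIL1RN1~3, sgTetO and sgTetOmut. All 10 HEK293T markers measured, neurofilament and keratin genes among them, did so on every array. In that order of arrays, 5, 4 and 6 of 10 blood and endothelial markers did. Of 6 fibroblast markers, 5, 4 and 5 did. IL1RN, the gene targeted by the guides, read 7.01 on sgIL1RN1~3 by its brightest set, and was at background with 2.28 on sgTetO and 2.23 on sgTetOmut. The arrays also differed in 2 other measures, given here because they stand beside results below. The chip controls for the 5' ends of the ACTB and GAPDH transcripts were higher on sgIL1RN1~3, and the interferon response was higher on sgTetOmut, with a summed linear level of 25 interferon genes of 3538 on sgIL1RN1~3 and 4410 on sgTetO, against 15620 on sgTetOmut.

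NF-kB binds a short DNA element, the kB site, and several of its own genes carry such sites near their start. The promoter windows below are shown because NFKB1, NFKB2, NFKBIA and TNFAIP3 are textbook examples of genes under NF-kB control. They come from RefSeq on GRCh38.p14, run 5' to 3' along the gene's strand, and stop before the annotated start. Capitals mark matches, on either strand, to the NF-kB consensus, and overlapping matches run together.

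NFKB1, chr4:102501109-102501358, plus strand: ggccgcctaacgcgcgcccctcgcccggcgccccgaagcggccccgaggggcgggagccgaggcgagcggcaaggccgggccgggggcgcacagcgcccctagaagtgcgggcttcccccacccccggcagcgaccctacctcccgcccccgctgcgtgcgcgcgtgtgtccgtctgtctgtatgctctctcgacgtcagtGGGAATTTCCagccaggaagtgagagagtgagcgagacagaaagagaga
NFKBIA, chr14:35404750-35404999, minus strand: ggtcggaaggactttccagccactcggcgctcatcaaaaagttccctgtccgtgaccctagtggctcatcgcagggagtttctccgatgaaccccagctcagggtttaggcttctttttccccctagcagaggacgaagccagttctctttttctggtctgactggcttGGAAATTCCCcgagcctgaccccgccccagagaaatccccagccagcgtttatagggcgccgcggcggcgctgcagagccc
TNFAIP3, chr6:137867188-137867217, plus strand: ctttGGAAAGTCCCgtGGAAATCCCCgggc
NFKB2, chr10:102394462-102394491, plus strand: aaacgtcatGGGAATTCCCCcctccggggg
NFKB2, chr10:102394490-102394519, plus strand: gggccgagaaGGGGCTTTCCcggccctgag
NFKB2, chr10:102395519-102395548, plus strand: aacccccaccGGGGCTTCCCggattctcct
NFKB2, chr10:102395674-102395703, plus strand: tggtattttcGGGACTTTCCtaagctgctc

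NFKB1 has 2 annotated starts, and the match lies 49 to 40 bases before the first of them, while the window of the other holds none, and the match of NFKBIA lies 81 to 72 bases before its start. TNFAIP3 has 2 matches, 67 to 58 and 55 to 46 bases before the start of the window's transcript. NFKB2 has 3 annotated starts with a window each, and matches in 2 of them. Windows were given for 5 of the 8 measured genes, 9 windows in all, and 5 windows of 4 genes held the consensus within the 250 bases before the start. Over all 35116 windows of the table, 5.21% held it. In both RELA windows it was not found, which says only that these letters are not in these bases. A match is a description of sequence, and binding was not measured.

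By probe set, the largest differences among the members were those of NFKB1 and of a dim NFKB2 set, both highest on the sgIL1RN1~3 array. Gene positions are those of RefSeq on GRCh38.p14. NFKB1 encodes p105, the precursor of the p50 subunit, and spans chr4:102501359-102617302. Its 1 probe set, 209239_at, read 5.28 on sgIL1RN1~3, against 4.40 on sgTetO and 4.39 on sgTetOmut. The sgIL1RN1~3 array stood apart, and the other arrays were 0.01 log2 units from each other. The difference was 0.88 log2 units, or 1.84-fold, over sgTetO and 0.89, or 1.86-fold, over sgTetOmut. Of the 1058 genes whose mean level lay within 0.5 log2 units of NFKB1, 1.89% were as far from sgTetO in either direction and 2.46% as far from sgTetOmut. With 16 added to the linear values, which shrinks dim differences, they were 0.56 and 0.57, under 1.5-fold. NFKB1 had a single set, so no second set bears on this reading.

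NFKB2, at chr10:102394110-102402529, encodes p100, which is cut to the p52 subunit in the non-canonical branch of the pathway and otherwise acts as an inhibitor. Its brightest set, 209636_at, read 6.00 on sgIL1RN1~3, against 5.54 on sgTetO and 5.64 on sgTetOmut. A dimmer set, 207535_s_at, read 4.36 on sgIL1RN1~3, against 3.67 on sgTetO and 3.64 on sgTetOmut. On both sets sgIL1RN1~3 was highest, but they gave different sizes. The bright set was 0.46 and 0.36 log2 units above sgTetO and sgTetOmut, or 1.38-fold and 1.28-fold. The dim set was 0.69 and 0.72 above them, or 1.61-fold and 1.65-fold. Of genes of like level, 12.1% and 20.8% were as far apart as the bright set in these pairs. As far apart as the dim set were 3.46% and 2.59%. The third set, 211524_at, was at background on all 3 arrays with 1.88, 1.88 and 2.00 on sgIL1RN1~3, sgTetO and sgTetOmut. The dim set lay only 0.27 log2 units above the background level on sgTetO and 0.35 on sgTetOmut, and its value on sgTetOmut was shared exactly by 77 other probe sets.

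RELA, at chr11:65653601-65663857, encodes p65, the subunit with the main activation domain of the canonical dimer. It read 8.41 on sgIL1RN1~3, against 8.13 on sgTetO and 8.18 on sgTetOmut by 201783_s_at. The array with the IL1RN guides was again highest, by 0.27 and 0.23 log2 units, a distance that 28.1% and 31.2% of genes of like level also reached. A second RELA set near background, 209878_s_at, read 3.70 on sgIL1RN1~3, 3.52 on sgTetO and 3.55 on sgTetOmut, in the same order. RELB, at chr19:45001464-45038192, encodes the partner of p52 in the non-canonical branch. It was dim on every array, at 3.91 on sgIL1RN1~3, 3.63 on sgTetO and 3.70 on sgTetOmut by 205205_at. It was highest on sgIL1RN1~3 by 0.28 over sgTetO and 0.21 over sgTetOmut, and by 0.13 and 0.10 with 16 added to the linear values, but its value there was shared exactly by 51 other probe sets. The remaining subunit gene, REL, which encodes c-Rel and is no member of the list, read 3.36, 3.47 and 3.38 on sgIL1RN1~3, sgTetO and sgTetOmut, within 0.10 log2 units of the background level on each array and above it on sgTetO and sgTetOmut.

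**Figure D1:**
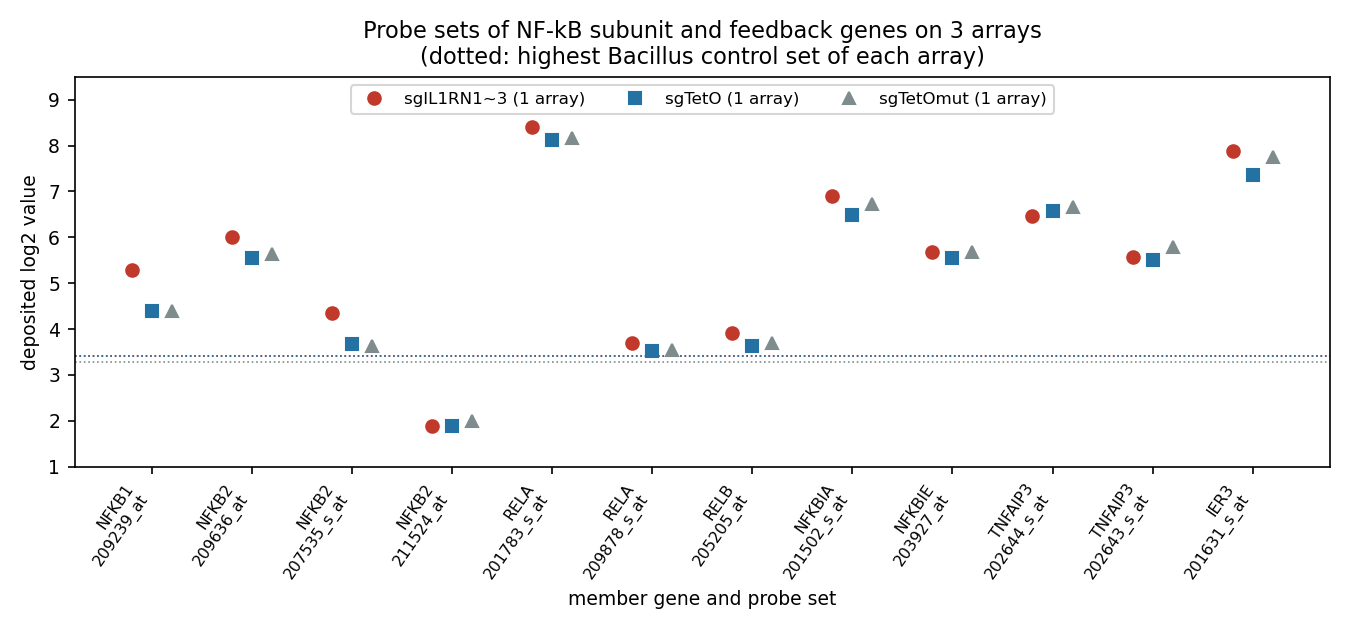
Deposited log2 value (vertical axis) of the 12 probe sets of the 8 measured genes, with 1 point per array for sgIL1RN1~3, sgTetO and sgTetOmut and dotted lines at the highest Bacillus set of each array. NFKB1 and both brighter NFKB2 sets are highest on sgIL1RN1~3, and 211524_at lies under the dotted lines on all 3 arrays.

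Among the feedback genes, NFKBIA, IER3 and NFKBIE were lowest on sgTetO, and for these sgIL1RN1~3 lay closer to sgTetOmut than to sgTetO. NFKBIA, at chr14:35401513-35404749, encodes IkB-alpha, the inhibitor that is resynthesised soon after NF-kB activation and ends the response. Its set 201502_s_at read 6.91 on sgIL1RN1~3, against 6.48 on sgTetO and 6.72 on sgTetOmut. NFKBIA was thus 0.42 log2 units (1.34-fold) above sgTetO and 0.19 above sgTetOmut on the sgIL1RN1~3 array, and 0.23 lower on sgTetO than on sgTetOmut. Of genes of like level, 13.1% were as far apart between sgIL1RN1~3 and sgTetO, and 14.5% between sgTetO and sgTetOmut.

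IER3, at chr6:30743199-30744547, encodes a small protein induced early by NF-kB and growth signals that acts on cell survival. Its 1 set, 201631_s_at, read 7.89 on sgIL1RN1~3, against 7.36 on sgTetO and 7.76 on sgTetOmut. Here sgTetO was the array that stood apart. It lay 0.40 log2 units under sgTetOmut, a distance reached by 2.79% of the 1181 genes of like level, and sgIL1RN1~3 lay 0.53 (1.45-fold) above it, which 6.69% of them reached. Between sgIL1RN1~3 and sgTetOmut the difference was 0.13, and 55.9% of such genes were as far apart.

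NFKBIE, at chr6:44258166-44265551, encodes IkB-epsilon, an inhibitor that returns later than IkB-alpha. By 203927_at it read 5.68 on sgIL1RN1~3, against 5.55 on sgTetO and 5.69 on sgTetOmut. The largest of its differences was 0.14 log2 units, and 43.2% of genes of like level were as far apart in that pair. Its value on sgTetO was shared exactly by 16 other probe sets.

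TNFAIP3, at chr6:137866349-137883312, encodes A20, an enzyme that edits ubiquitin chains and shuts off the signal upstream of the kinase complex. It was the 1 gene of the 8 with its lowest value on sgIL1RN1~3, reading 6.48 there, against 6.58 on sgTetO and 6.67 on sgTetOmut by 202644_s_at. Its second set, 202643_s_at, read 5.58 on sgIL1RN1~3, 5.51 on sgTetO and 5.78 on sgTetOmut. Both sets were highest on sgTetOmut, but they placed the other arrays in opposite order. TNFAIP3 therefore lay 0.10 below or 0.07 above sgTetO on sgIL1RN1~3, depending on the set, and 0.19 and 0.20 below sgTetOmut. NFKBIB, the gene for the related inhibitor IkB-beta and no member of the list, read 6.58 on sgIL1RN1~3, 6.52 on sgTetO and 6.34 on sgTetOmut, and by its second set 6.48, 6.19 and 6.25 in that order of arrays. Both NFKBIB sets carry the suffix of sets that can cross-hybridize.

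**Figure D2:**
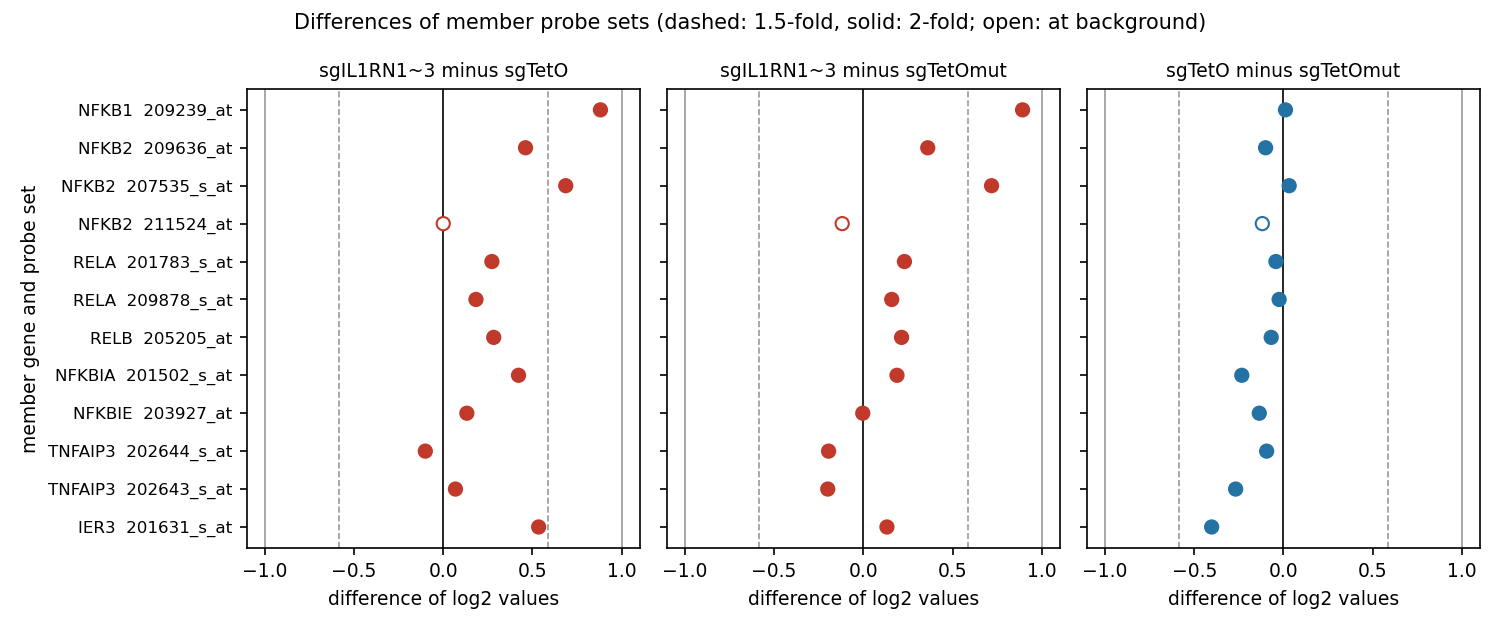
Difference of log2 values (horizontal axis) of the 12 probe sets in each pair of arrays, with dashed lines at 1.5-fold, solid grey lines at 2-fold and an open point for the set at background. NFKB1 and the dim NFKB2 set lie past the dashed line in both comparisons of sgIL1RN1~3, and no set does so between sgTetO and sgTetOmut.

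Counted over the 8 genes, 0 were 2-fold apart between sgIL1RN1~3 and sgTetO, where 0.226% of all 11963 genes were. At 1.5-fold NFKB1 was the 1 gene higher, and 1.95% of all genes were. All but TNFAIP3, 7 of the 8 genes, were to some extent higher on sgIL1RN1~3 than on sgTetO, as were 50.9% of all genes. The median difference of the 8 genes was 0.35 log2 units, against 0.01 over all genes. With a limit of 0.32 log2 units 4 genes were higher, namely NFKB1, NFKB2, NFKBIA and IER3, against 10.9% of all genes.

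Between sgIL1RN1~3 and sgTetOmut 0 of the 8 genes were 2-fold apart, against 0.593% of all genes. NFKB1 was the 1 gene higher by 1.5-fold, against 1.35% of all genes. All but TNFAIP3 and NFKBIE, 6 of the 8, were higher to some extent, as were 47.5% of all genes. The median of the 8 was 0.20 log2 units, against 0.00 over all genes. At 0.32 log2 units 2 genes were higher, NFKB1 and NFKB2, against 8.59% of all genes.

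Between sgTetO and sgTetOmut 0 of the 8 genes were 2-fold apart, against 0.426% of all genes, and 0 were 1.5-fold apart, against 1.47%. All but NFKB1, 7 of the 8, were lower on sgTetO, as were 51.6% of all genes. This direction turned for RELA, to 0.01, under quantile scaling, and for NFKB2, to 0.03, with the median of its sets, which is its dim set. The median of the 8 was -0.10 log2 units, against -0.01 over all genes. IER3 was the 1 gene lower by at least 0.32 log2 units, against 4.87% of all genes. The 3 comparisons share arrays, so the low sgTetO values enter the first and the third of them alike. The sgIL1RN1~3 array was the highest of the 3 for 6 of the 8 genes, against 37.4% of all genes. The sgTetO array was the lowest for 6, against 34.4%, and for 5 under quantile scaling or with the median of all sets of a gene. All 8 genes were read on the same 3 arrays and are not independent of each other.

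**Figure D3:**
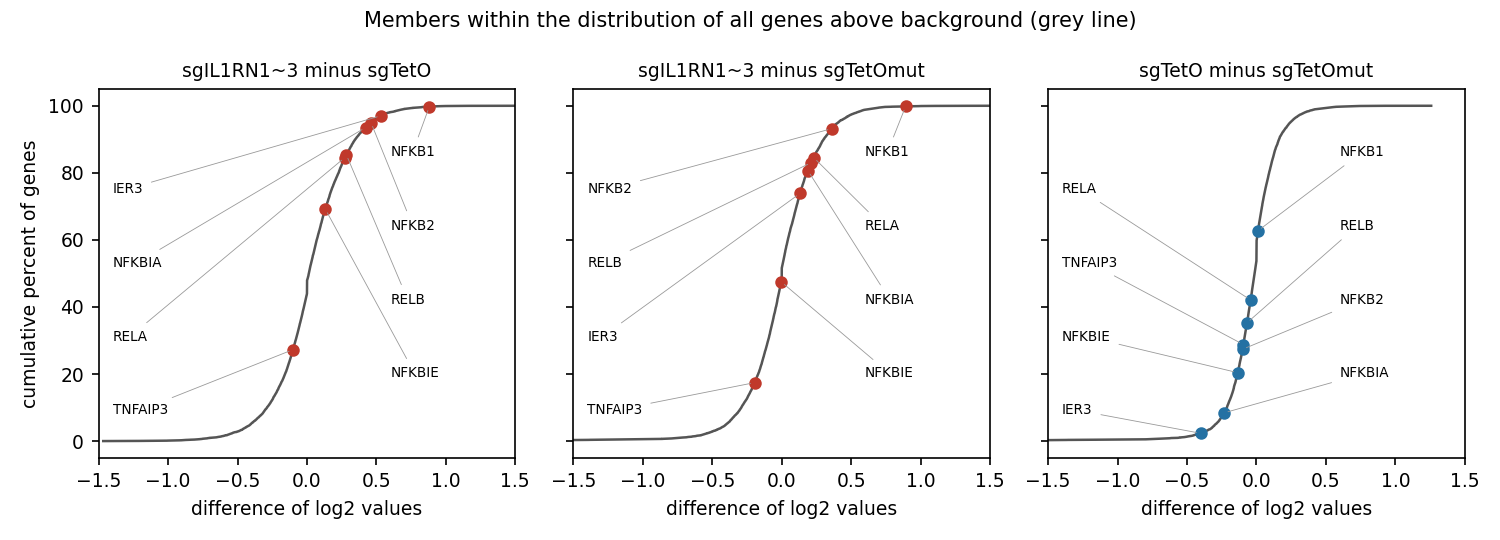
Cumulative percent (vertical axis) of the genes above background on all 3 arrays by their difference of log2 values (horizontal axis, cut at 1.5 log2 units on either side), with the 8 measured genes as labelled points. NFKB1 lies near the top end of both sgIL1RN1~3 distributions, and IER3 near the low end between sgTetO and sgTetOmut.

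The 5' chip controls were higher on the same array as NFKB1 and NFKB2. On Affymetrix chips these sets compare the 5' end, the middle and the 3' end of a long transcript, so they track how complete the labelled transcripts are. For ACTB the 5' set read 8.43 on sgIL1RN1~3, against 7.48 on sgTetO and 7.61 on sgTetOmut, and its 3' set 13.4, 13.3 and 13.3 in that order of arrays. The 5' set of GAPDH read 9.83 on sgIL1RN1~3, against 8.99 on sgTetO and 9.17 on sgTetOmut, and its 3' set 11.9 on each. These 5' differences, 0.66 to 0.95 log2 units, were of the size of the NFKB1 difference. Between sgTetO and sgTetOmut the 5' sets were 0.13 and 0.18 lower on sgTetO. By their brightest sets NFKB2, RELA, RELB, NFKBIA and IER3 had the same order of arrays as the 5' sets, highest on sgIL1RN1~3 and lowest on sgTetO. NFKBIE and TNFAIP3 were highest on sgTetOmut. The counts of members highest on sgIL1RN1~3 or lowest on sgTetO thus ran parallel to these controls. The part of the controls in the values of any member was not tested, and no position of a member's probes along its transcript was given here.

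**Figure D4:**
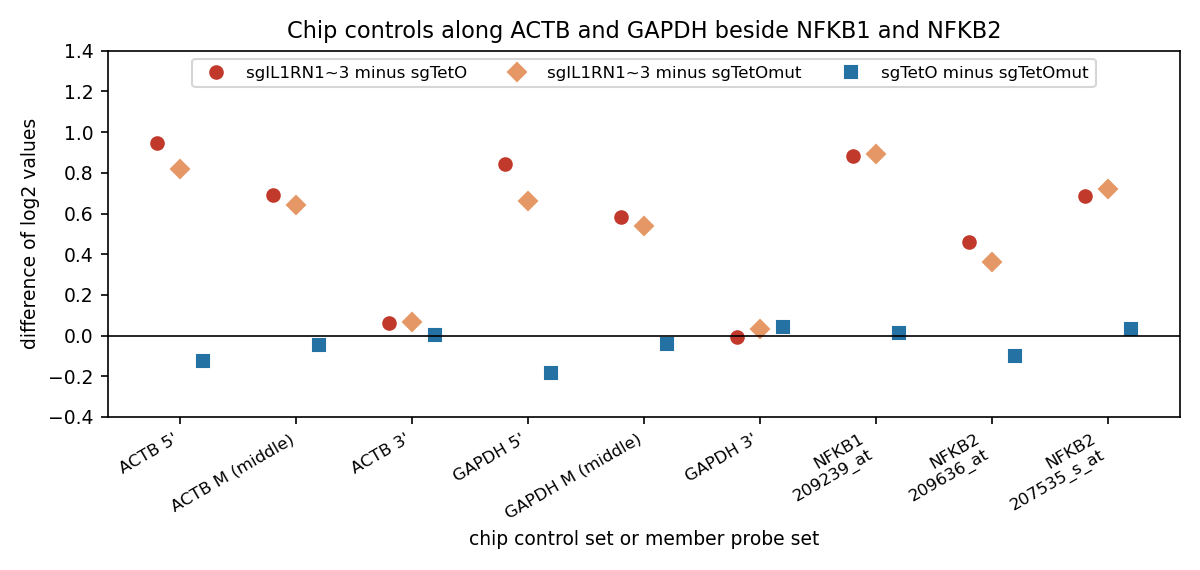
Difference of log2 values (vertical axis) of the 5', middle and 3' chip controls of ACTB and GAPDH, and of the NFKB1 and brighter NFKB2 probe sets, with 1 point per pair of arrays. The 5' and middle controls are higher on sgIL1RN1~3 than on both other arrays, as NFKB1 and NFKB2 are, while the 3' controls are within 0.07 of 0 in every pair.

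The genes that carry the signal to NF-kB had median differences near 0. Of 49 entries on the upstream list, 39 were measured, 38 of them above background on all 3 arrays, where 8974 of all 11963 genes were. Between sgIL1RN1~3 and sgTetO, 0 were 2-fold apart, against 0.226% of all genes, and the median was 0.00 log2 units. In this pair 19 were higher and 16 lower, where 50.9% of all genes were higher and 43.3% lower. Between sgIL1RN1~3 and sgTetOmut, 18 were higher and 19 lower with a median of 0.00, where 47.5% of all genes were higher and 47.0% lower. Between sgTetO and sgTetOmut 10 were higher and 23 lower with a median of -0.04, where 51.6% of all genes were lower. The remaining upstream genes held the same value on both arrays of a pair. At least 0.32 log2 units apart in either direction were 8 upstream genes between sgIL1RN1~3 and sgTetO, against 18.7% of all genes, 8 between sgIL1RN1~3 and sgTetOmut, against 16.8%, and 4 between sgTetO and sgTetOmut, against 8.28%.

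Among receptors, IL1R1, the signalling receptor for IL-1, read 3.97 on sgIL1RN1~3, against 4.57 on sgTetO and 4.47 on sgTetOmut. This is 0.60 and 0.50 log2 units lower, in a dim range, and its second set was at background on all 3 arrays. TLR3, a sensor of double-stranded RNA that is itself induced by interferon, was the 1 upstream gene past 2-fold, in both pairs with sgTetOmut. Of all genes, 0.593% were so between sgIL1RN1~3 and sgTetOmut, and 0.426% between sgTetO and sgTetOmut. TLR3 read 5.19 on sgIL1RN1~3 and 5.43 on sgTetO, against 6.47 on sgTetOmut, the array with the higher interferon genes.

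In the kinase complex, CHUK, which encodes IKK-alpha, read 9.17 on sgIL1RN1~3, against 9.49 on sgTetO and 9.64 on sgTetOmut. It was lower on sgIL1RN1~3 by 0.33 and 0.47 log2 units, whereas IKBKB, which encodes IKK-beta, was 0.06 above sgTetO and equal to sgTetOmut. MAP3K3, a kinase that can feed into the complex, was 0.49 and 0.27 higher than on sgTetO and sgTetOmut. MAP3K14, the kinase of the non-canonical branch that directs p100 processing, was dim and differed by 0.00 and 0.03.

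BTRC, which encodes the ligase subunit that recognises phosphorylated IkB, repeated the order seen for IER3. It read 5.86 on sgIL1RN1~3, 5.38 on sgTetO and 5.85 on sgTetOmut by its brightest set, but a second set above background was equal on sgIL1RN1~3 and sgTetO. CYLD, which removes ubiquitin chains from the signalling complex, was 0.57 and 0.48 lower on sgIL1RN1~3 by its brightest set. Its 5 further sets above background ranged more narrowly, from -0.13 to 0.25 against sgTetO and from -0.37 to 0.08 against sgTetOmut. TANK, an adaptor of the related kinases, was 0.36 higher on sgTetO than on sgTetOmut by its brightest set and 0.12 higher by a second, but 0.37 lower by a dim set, 210458_s_at, which was above background on both of these arrays. RBCK1, a part of the linear ubiquitin ligase, was 0.41 lower on sgTetO than on sgTetOmut, and 0.32 lower by its second set.

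Target genes of NF-kB outside the list of members, those at background included, were split evenly between higher and lower on sgIL1RN1~3 against sgTetO. Of 50 entries 45 were measured and 33 lay above background on all 3 arrays, where 8974 of all 11963 genes did. Between sgIL1RN1~3 and sgTetO, 0 were 2-fold apart, against 0.226% of all genes, and the median was 0.00 log2 units. In this pair 20 were higher and 20 lower, where 50.9% of all genes were higher and 43.3% lower. Of the 33 above background on all 3 arrays, 17 were higher and 14 lower with a median of 0.05. Among all genes above background on all 3 arrays, 52.2% were higher and 43.8% lower. Past 1.5-fold were SDC4 and TNFAIP2, both higher, as were 1.95% of all genes. SDC4, a cell-surface proteoglycan, read 8.63 on sgIL1RN1~3, against 7.74 on sgTetO and 8.07 on sgTetOmut. TNFAIP2, a cytokine-induced protein of membrane tubes, read 4.52, 3.74 and 3.98 on sgIL1RN1~3, sgTetO and sgTetOmut, and its second set was at background. Both were lowest on sgTetO, as NFKBIA and IER3 were. Between sgIL1RN1~3 and sgTetOmut 16 targets were higher and 28 lower with a median of -0.09, where 47.0% of all genes were lower. Between sgTetO and sgTetOmut 15 targets were higher and 27 lower with a median of -0.05, where 51.6% of all genes were lower.

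Of 13 cytokine and chemokine genes, 0 were 1.5-fold apart between sgIL1RN1~3 and sgTetO, a pair in which 3.49% of all genes were. CXCL2, a neutrophil attractant, read 5.52 on sgIL1RN1~3, against 5.94 on sgTetO and 5.94 on sgTetOmut, and so was 0.42 lower than on each. CXCL8, the main such attractant in humans, read 5.76 on sgIL1RN1~3, 5.69 on sgTetO and 6.11 on sgTetOmut. The sets read for CXCL2 and CXCL8 carry the suffix of sets that can cross-hybridize. The CXCL2 value on sgIL1RN1~3 was shared exactly by 11 other probe sets. Of genes of like level, 15.7% were as far from sgTetO as CXCL2 was, and 14.1% as far from sgTetOmut. TNF was above background on sgTetOmut alone, at 3.53 there, and CCL2, CCL20, ICAM1, VCAM1, SELE and BCL2A1 were at background on all 3 arrays. KLF6, an early-response transcription factor, was 0.44 and 0.42 above sgTetO and sgTetOmut, and 0.75 and 0.45 above them by its second set above background.

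Between sgTetO and sgTetOmut, 4 target genes were at least 2-fold lower on sgTetO, against 0.41% of all genes. The same 4 were so on sgIL1RN1~3, against 0.476% of all genes. These were PSMB9, TAP1, CCL5 and CXCL10, all of them also known as interferon-induced genes. PSMB9, an immunoproteasome subunit, read 4.45 on sgIL1RN1~3 and 4.17 on sgTetO, against 6.64 on sgTetOmut. TAP1, a peptide transporter, read 7.32 on sgIL1RN1~3 and 7.25 on sgTetO, against 8.51 on sgTetOmut. CCL5, a chemokine, read 3.88 on sgIL1RN1~3 and 3.83 on sgTetO, against 5.36 on sgTetOmut. CXCL10 was at background on sgIL1RN1~3 and sgTetO, at least 6.58-fold lower than its 6.12 on sgTetOmut, a bound set by the highest Bacillus set. IRF1, a transcription factor induced by interferon and by NF-kB, followed with a value 0.57 lower on sgTetO than on sgTetOmut. No target besides PSMB9, TAP1, CCL5 and CXCL10 was 1.5-fold apart between sgTetO and sgTetOmut.

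The members differed less between these arrays than the interferon-induced targets. The interferon list had a median of -1.84 log2 units for sgTetO minus sgTetOmut, with 23 of 25 genes at least 2-fold lower. Over all genes the median was -0.01, and 0.41% were at least 2-fold lower. The 8 members lay between -0.40 and 0.01.

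**Figure D5:**
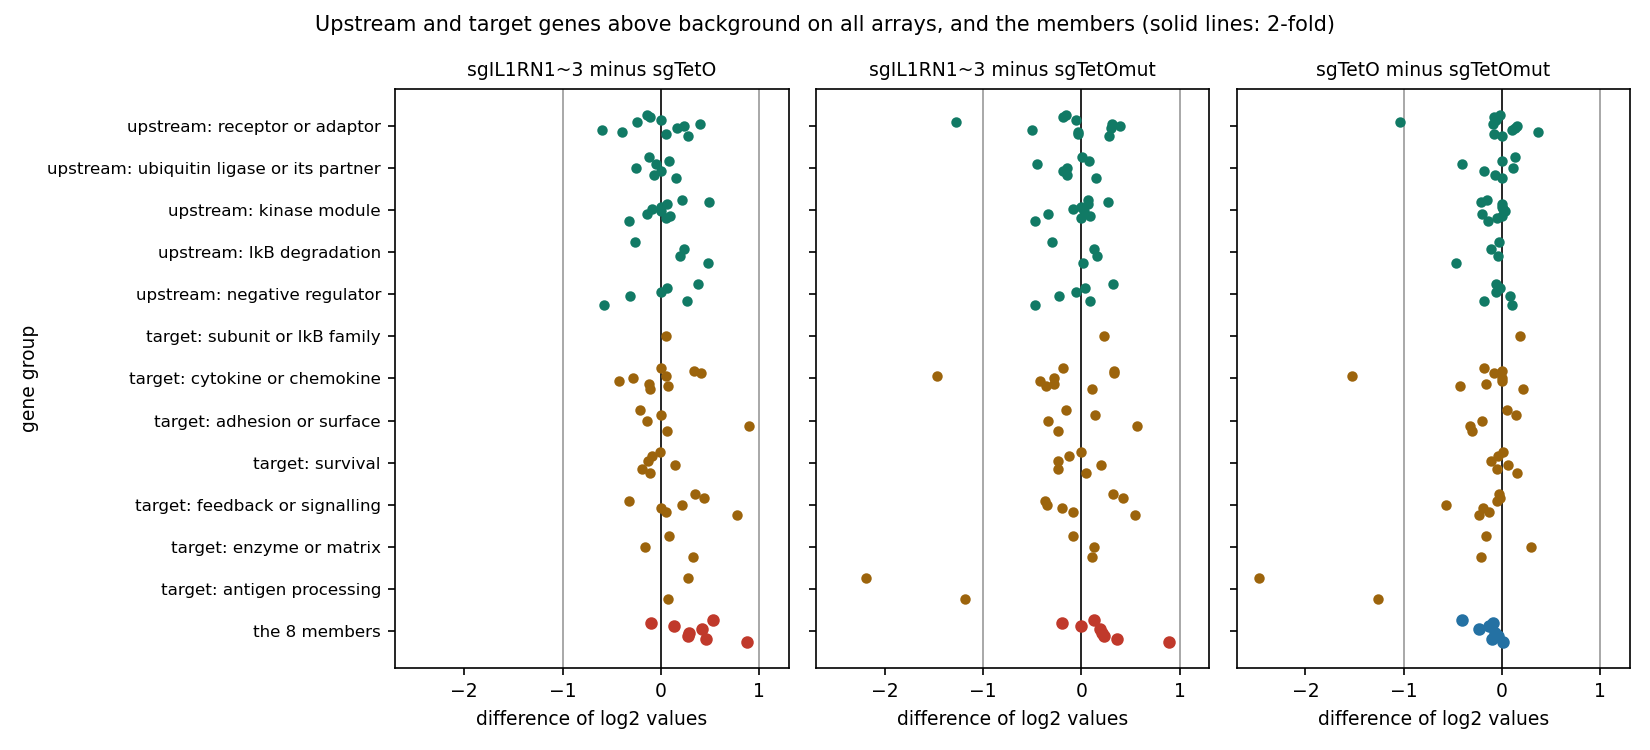
Difference of log2 values (horizontal axis) of upstream genes (green) and target genes (brown) above background on all arrays, grouped by role, and of the 8 members in the bottom row, with 1 point per gene and solid grey lines at 2-fold. The points past 2-fold are TLR3, CCL5, TAP1 and PSMB9, all lower than on sgTetOmut.

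For the 4 members whose values spanned at least 0.4 log2 units, the genes nearest in pattern were sought among 5978 genes whose mean reached the median, by the Euclidean distance between the 3 values after each gene's mean was subtracted. Nearest to NFKB1 were VCP at a distance of 0.06, ANXA6 at 0.09, ATP6V0D1 and GPC3 at 0.10 and RHOC at 0.11, and 2 genes in all lay within 0.1. IER3 was closest to SCARB2, AKR1C1 and LSM2, each at 0.02, and to FAM234B and ADM at 0.04, with 47 genes within 0.1. For NFKBIA the nearest were TXNIP, ATP5F1A, PTPRF, POLDIP3 and GPI, all within 0.012, and 267 genes lay within 0.1. For NFKB2 they were B9D1, DFFB, SEMA4F, CANT1 and DNPH1, all within 0.012, among 278 genes within 0.1. These counts are not comparable between members, since the distance is not scaled to a gene's range and few genes differ as widely as NFKB1. The levels of NFKB1 and NFKB2 themselves lie below the median that the searched genes reached. With 3 arrays a pattern consists of 2 differences, and likeness in them is a description only.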

How the data were processed

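The deposited values, per the submitters' processing notes made with the affy package, are log2 intensities of 22277 probe sets on 3 single-channel arrays, from 1.36 to 14.5. The unit was read from this range. Which version, background correction, normalization and summary method the authors used is not given in the sources used here; after such scaling a difference is relative to most genes. On a pair of arrays 6.21% to 8.25% of sets held equal values.

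Names came from GEO's annotation of the array. Sets with 1 symbol were used, and 1043 with several and 2164 unlisted sets were not. Members, lists and limits were chosen with earlier results of these data known. Named were all probe sets of the members and, per list and pair, the 4 genes furthest apart among those above background, plus REL, NFKBIB, IL1RN and the genes nearest in pattern. Other targets (CXCL10 and further cytokines among them) and the upstream genes IKBKB and MAP3K14 were named after their values were seen. With 1 array a group, differences were counted at 2-fold, 1.5-fold and 0.32 log2 units, with no test, and so few arrays limit the precision. The counting was tested on simulated data. Python 3.11.15, numpy 2.4.6, pandas 2.3.3 and limma 3.58.1 in R 4.3.3 were used.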

Additional observations from a re-analysis of the deposited data

How the results depend on the processing

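The counts depended on the fold limit. For the 8 members, 0 were past 2-fold in each pair. At 1.5-fold 1 member, NFKB1, was higher on sgIL1RN1~3 than on sgTetO, and likewise 1 than on sgTetOmut. At 0.32 log2 units the counts were 4 and 2 in these pairs and 1 for sgTetO against sgTetOmut. Past 1.5-fold between sgIL1RN1~3 and sgTetO were 1 upstream gene and 2 targets, against 3.49% of all genes. Past 0.32 log2 units in the 3 pairs were 8, 8 and 4 upstream genes and 9, 14 and 7 targets. Of all genes 18.7%, 16.8% and 8.28% were past 0.32 log2 units in these pairs, a background for the members and both lists alike. With 16 added to linear values, which shrinks dim differences, the upstream count was 0 in place of 1 (TLR3) in both pairs with sgTetOmut, and NFKB1 differed by 0.56 from sgTetO and 0.57 from sgTetOmut, under 1.5-fold. With the median of all sets, which for NFKB2 is its dim set 207535_s_at on every array, NFKB2 differed by 0.69 and 0.72. Of 156 repeated values of single members 2 turned sign, both for sgTetO minus sgTetOmut. These were RELA, to 0.01 under quantile scaling, and NFKB2, to 0.03 with the median of all sets, and members lowest on sgTetO were then 5 in place of 6. Many of the 156 could not change. A gene with 1 set keeps its value under the mean or median of sets, and leaving out dim genes alters no value of those kept. The 156 are therefore no measure of stability. Under cyclic loess NFKBIE differed by 0.08 from sgTetO on sgIL1RN1~3. With genes reaching the median level alone, 4 members were left, 3 of them highest on sgIL1RN1~3 and 3 lowest on sgTetO, and 2 targets in place of 4 were past 2-fold in both pairs with sgTetOmut, since fewer genes were counted. Across quantile and cyclic loess scaling and the other alternatives, the members' median stayed between 0.31 and 0.35 for sgIL1RN1~3 minus sgTetO, 0.14 and 0.20 for sgIL1RN1~3 minus sgTetOmut, and -0.16 and -0.07 for sgTetO minus sgTetOmut. Counts of members highest or lowest on an array were repeated under these alternatives after they had been seen. No paired analysis was possible because each group holds 1 array.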
